A study of Homo sapiens with 12 samples.

Results

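MHC class I molecules carry peptides from inside the cell to its surface, where cytotoxic T cells and natural killer cells read them. A heavy chain (HLA-B, HLA-C or HLA-E here) pairs with the light chain beta-2-microglobulin (B2M) in the endoplasmic reticulum (ER), the aminopeptidases ERAP1 and ERAP2 trim peptides to length, and the chaperone calreticulin (CALR) with the disulfide isomerase PDIA3 (ERp57) holds the empty molecule while a peptide is loaded. NLRC5 is the transactivator of class I genes, and it acts at their promoters through a platform of RFX, NF-Y and CREB/ATF factors. These 9 genes are described here, out of 57167 genes counted in DU145 and 61860 in C4-2. They were listed by name for their known roles, taken by gene name from the DU145 table and by the same identifier from the C4-2 table, and all 9 were found in both.

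RNA sequencing was done on 2 prostate cancer lines given palbociclib, an inhibitor of the cell-cycle kinases CDK4 and CDK6, or its solvent, dimethyl sulfoxide (DMSO). The groups were DU145 with palbociclib (3 libraries), DU145 with DMSO (3), C4-2 with palbociclib (3) and C4-2 with DMSO (3 by the labels), all grown in RPMI-1640 with serum. No dose or duration of palbociclib is given in the sources used here, and since no label states that a group's libraries are independent cultures, p-values here reflect library-to-library spread alone, possibly of technical origin. C4-2 DMSO replicate 3 holds no reads at all and was left out, which leaves 11 of 12 libraries.

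DU145 libraries hold 16108999 to 16674393 counts and C4-2 libraries 2608851 to 3489659, so low genes are measured less well in C4-2. Within DU145, both libraries numbered 3 stand apart from the other replicates of their group: chi-square over degrees of freedom was 5.41 to 8.34 in pairs that hold one of them, and 2.36 to 2.37 in the other pairs. In C4-2 it was 1.14 to 1.18, little above counting error, so the replicate spread behind the C4-2 p-values is small. No call on a member within DU145 changed without these 2 libraries. The libraries labelled C4-2 have no reads for KLK3, KLK2, FOLH1 or ACP3, defining genes of luminal prostate cells, and DU145 libraries have none for KLK3, KLK2 and FOLH1. C4-2 is known as an androgen-receptor-positive line that makes KLK3, so the first group is called "labelled C4-2" or C4-2 by its label only. Epithelial markers were present in every library, with a summed level of 1670 to 1770 CPM with palbociclib and 2310 to 2500 CPM with DMSO in DU145, and of 409 to 444 CPM with palbociclib and 1040 to 1050 CPM with DMSO in C4-2 (CPM is the count scaled to the library's total).

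The C4-2 table holds few reads in the MHC region, taken here as chromosome 6 from 29722775 to 33087201 (GRCh38, HLA-F to HLA-DPB1). Of 62 protein-coding genes there with at least 10 CPM in DU145, 38 (61.3%) had under 1 CPM in C4-2. On the rest of chromosome 6 the same held for 22 of 393 genes (5.6%), and on the rest of the genome for 390 of 9298 (4.19%). The median ratio of C4-2 over DU145 levels was 0.00491 in the region and 1.16 on the rest of chromosome 6. The cause was not tested. HLA-E is among the genes affected, with 0 to 5 counts per C4-2 library, whereas HLA-B and HLA-C are among the 8 of the 62 genes that kept at least 100 counts.

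**Figure D1:**
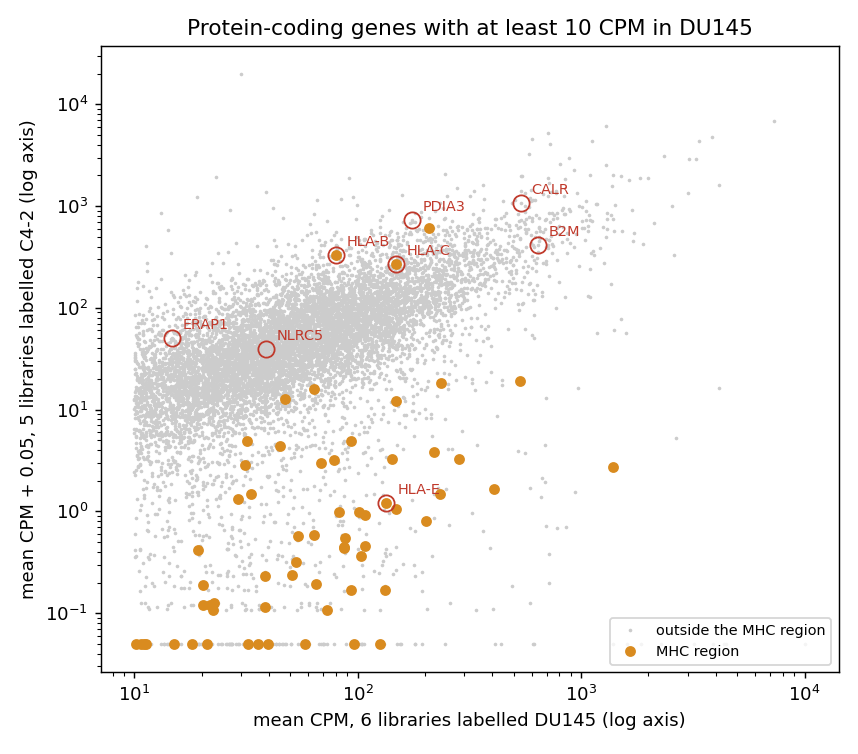
Mean CPM of protein-coding genes with at least 10 CPM in DU145, in DU145 (6 libraries, horizontal log axis) and in C4-2 (5 libraries, vertical log axis, with 0.05 added); orange points are genes of the MHC region, grey points all others, and red rings mark the 8 members with at least 10 CPM in DU145. HLA-B and HLA-C lie within the grey cloud, while HLA-E lies far below it, at a mean of 1.16 CPM in C4-2.

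The promoters of the class I heavy chains and of B2M share a module that the NLRC5 platform binds, in which an X2 box is followed by a Y box. Upstream stretches of 5 members are shown because they hold the letters of this module or of the motifs that interferon, NF-kappaB and ER-stress factors bind. The sequences are from RefSeq (GRCh38.p14), where 6 of the 9 members had a promoter entry. Each is written 5′ to 3′ on the gene's strand, and positions count back from the RefSeq gene start. Capitals mark TGACG (core of the X2 box) and CCAAT or its complement ATTGG (Y box) in B2M, HLA-B and HLA-C, GAAANNGAAA (interferon response) in B2M and ERAP2, GGGGATTCC (kappaB) in HLA-B, and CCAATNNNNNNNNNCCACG (ER stress element, read on the other strand) together with CCAAT in CALR.
B2M, chr15:44711368-44711477, plus strand, -149 to -40: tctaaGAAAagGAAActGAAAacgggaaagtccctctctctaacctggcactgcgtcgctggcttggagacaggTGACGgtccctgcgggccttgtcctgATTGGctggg
HLA-B, chr6:31357226-31357361, minus strand, -182 to -47: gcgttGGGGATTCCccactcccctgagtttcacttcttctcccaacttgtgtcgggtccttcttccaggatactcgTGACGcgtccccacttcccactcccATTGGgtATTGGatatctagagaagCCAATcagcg
HLA-C, chr6:31272139-31272289, minus strand, -197 to -47: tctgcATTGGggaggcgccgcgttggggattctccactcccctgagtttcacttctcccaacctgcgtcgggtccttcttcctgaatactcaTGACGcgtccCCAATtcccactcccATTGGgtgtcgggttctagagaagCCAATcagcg
ERAP2, chr5:96876460-96876489, plus strand, -40 to -11: tcttagaacaGAAAgtGAAAgcaaaagtaa
CALR, chr19:12938379-12938524, plus strand, -230 to -85: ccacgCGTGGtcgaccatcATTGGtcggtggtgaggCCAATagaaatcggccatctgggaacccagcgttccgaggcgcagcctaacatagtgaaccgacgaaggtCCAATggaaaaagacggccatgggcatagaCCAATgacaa

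TGACG followed after 20 or 21 bases by ATTGG, a spacing chosen from these sequences, is in the promoters of B2M, HLA-B and HLA-C and in 0.151% of 35116 promoters of 300 bases in the same table, both strands searched. Alone, TGACG is in 24.6% of all promoters and CCAAT in 34.6%, so a single match says little. The interferon-response letters are in 3.57% of promoters and start at -144 and, overlapping, at -138 in B2M and at -30 before the second of 2 listed starts of ERAP2. In ERAP1 they lie after the start, on the other strand. GGGGATTCC is in 0.285% of promoters and in HLA-B alone among the members with an entry, and the ER stress element is in 0.0769% and in CALR alone. Over the 250 bases before the start, HLA-B and HLA-C are 89.0% identical in a gapped alignment, and B2M is 49.5% identical to HLA-B. A match describes letters in this window and does not show that a factor binds there.

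With palbociclib, B2M and HLA-B RNA were higher than with DMSO in both lines, HLA-E was 2.18-fold higher in DU145, and CALR moved in opposite directions, up in DU145 and down in C4-2. ERAP1 and ERAP2 were also lower in DU145 and higher in C4-2. Calls are at an adjusted p below 0.05 from edgeR's quasi-likelihood test with Benjamini-Hochberg adjustment over all genes tested, and a log2 fold change is palbociclib over DMSO. In DU145, 6 of 9 members were called, where 58.1% of all 15361 tested genes were called, a share close to the members' own. Of these, 4 were higher (background 28.8%) and 2 lower (background 29.2%). In C4-2, all 8 members that passed the filter on low counts were called, against a background of 51.8% of 11943 genes, with 7 higher (background 25.2%) and 1 lower (background 26.6%). HLA-E did not pass that filter in C4-2. The median log2 fold change was 0.07 over the 9 members in DU145, beside -0.01 over all genes, and 0.37 over the 8 members in C4-2, beside 0.00. Of the 8 members tested in both lines, B2M and HLA-B were called the same way in both, where 17.5% of 11007 genes were.

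**Figure D2:**
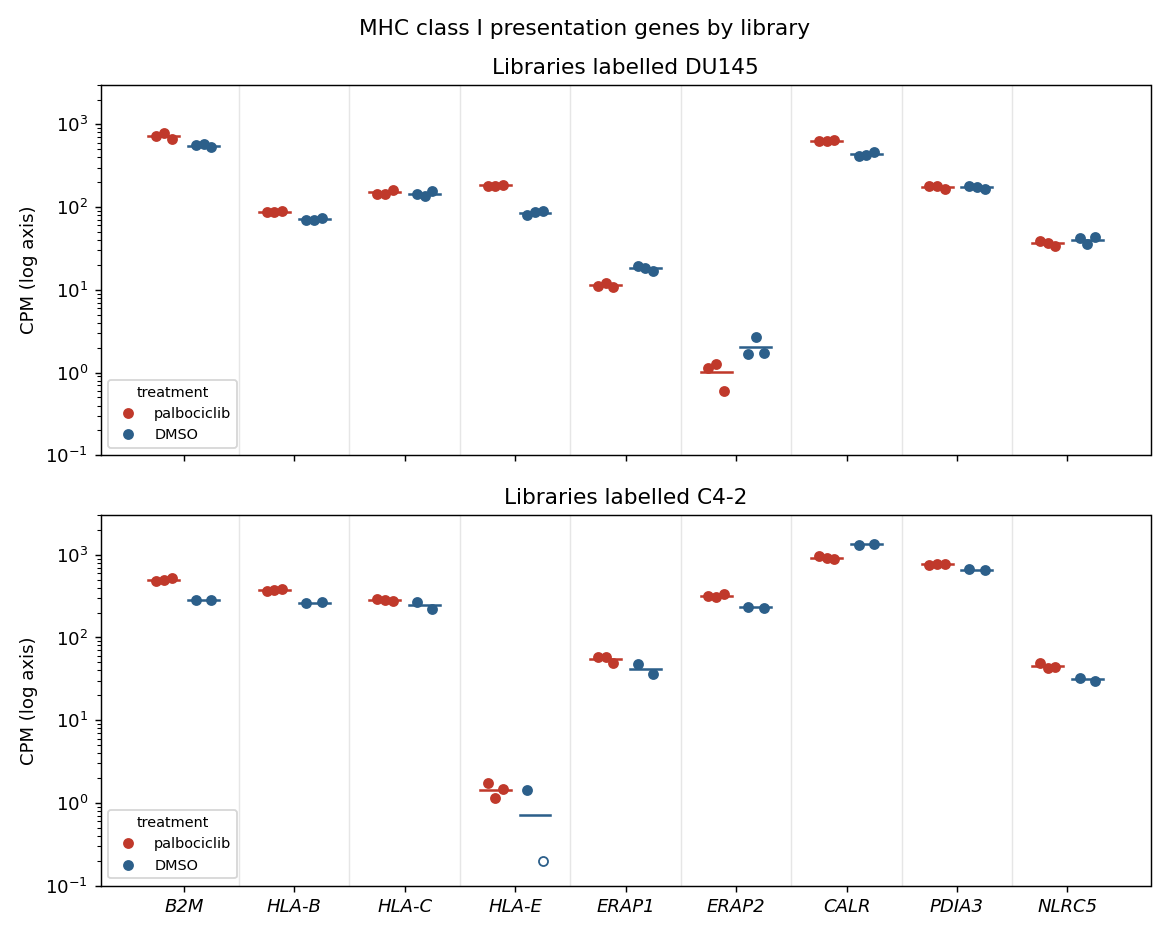
CPM of the 9 members in each library (log axis), DU145 above and C4-2 below, with palbociclib in red to the left of DMSO in blue; each point is a library and each bar the group mean. The open point at the foot of the axis is the C4-2 DMSO library with no HLA-E count. B2M and HLA-B lie higher with palbociclib in both panels, and CALR changes sides between them.

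The CPM ranges of palbociclib and DMSO libraries did not overlap for 6 of 9 members in DU145, where this held for 62.7% of genes, nor for 8 of 8 in C4-2, where it held for 66.1%. Overlapping ranges were those of HLA-C, PDIA3 and NLRC5 in DU145.

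B2M (chromosome 15, 44711487 to 44718877, plus strand) is the light chain shared by all class I molecules. In DU145 it had 733.0, 783.2 and 671.2 CPM with palbociclib, against 556.8, 575.1 and 526.9 CPM with DMSO. Every palbociclib library was above every DMSO library. Its log2 fold change was 0.42 (SE 0.06, adjusted p = 1.76e-05), a 1.34-fold rise. In C4-2 it had 486.6, 488.7 and 519.2 CPM with palbociclib, against 284.6 and 281.9 CPM with DMSO, again with no overlap. There the log2 fold change was 0.77 (SE 0.04, adjusted p = 7.57e-19), a 1.71-fold rise. The change in DU145 minus that in C4-2 was -0.31 (SE 0.09, adjusted p = 0.00622), so B2M rose by less in DU145. In bulk RNA, a change in the share of cells that make a transcript and a change per cell cannot be told apart, here and for every gene below.

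HLA-B (chromosome 6, 31269491 to 31357188, minus strand) is a classical heavy chain that presents peptides to CD8 T cells. In DU145 its counts were 1452, 1421 and 1515 with palbociclib, against 1121, 1143 and 1203 with DMSO. The groups did not overlap in counts or in CPM, which averaged 88.2 ± 2.39 with palbociclib and 71.2 ± 1.93 with DMSO (SD, n = 3 each). The log2 fold change was 0.33 (SE 0.07, adjusted p = 0.000498). In C4-2 the counts were 1045, 975 and 1295 with palbociclib, against 914 and 805 with DMSO. The CPM were apart, at 361.6 to 383.3 with palbociclib and 261.9 to 266.9 with DMSO. The log2 fold change was 0.45 (SE 0.05, adjusted p = 4.99e-11). The difference between the lines was -0.08 (95% interval -0.27 to 0.11, adjusted p = 0.553), so a difference in the response of HLA-B was not shown.

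HLA-C (chromosome 6, 31268749 to 31272130, minus strand) is a classical heavy chain and the main ligand of killer-cell immunoglobulin-like receptors. In DU145 its counts were 2407, 2400 and 2676 with palbociclib, against 2322, 2205 and 2562 with DMSO. The groups overlapped, and the log2 fold change was 0.07 (95% interval -0.08 to 0.22, adjusted p = 0.427). In C4-2 the counts were 833, 749 and 943 with palbociclib, against 941 and 664 with DMSO. The CPM were narrowly apart, at 279.1 to 288.3 with palbociclib and 269.7 and 220.2 with DMSO. The C4-2 log2 fold change was 0.16 (SE 0.06, adjusted p = 0.017), and this call rests on DMSO replicate 2, since without it the value was 0.02 (adjusted p = 0.805). DESeq2 did not call it either (adjusted p = 0.105), nor did the fit that left out palbociclib replicate 2 (adjusted p = 0.0677). In the DU145 table's annotation the spans of HLA-B and HLA-C overlap by 2640 bases on the same strand, and heavy chains are close copies of each other, so how reads were shared between them is uncertain.

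HLA-E (chromosome 6, 30489467 to 30494205, plus strand) is a non-classical heavy chain that presents leader peptides of other class I chains to the NKG2A and NKG2C receptors of natural killer cells. In DU145 its counts were 3012, 2988 and 3124 with palbociclib, against 1281, 1397 and 1488 with DMSO. Every palbociclib library had more than 2 times the count of any DMSO library. The log2 fold change was 1.12 (SE 0.07, adjusted p = 4.77e-10), the largest among the members in either line, and it stayed between 1.06 and 1.18 under every alternative run. In C4-2 the counts were 5, 3 and 5 with palbociclib, against 5 and 0 with DMSO. A count of 0 allows up to 0.995 CPM in that library. These few counts go with the scarcity of reads across the MHC region in the C4-2 table, and no change of HLA-E could be measured there. The difference between the lines (0.28, 95% interval -1.31 to 1.88, adjusted p = 0.871) is as wide as those counts make it.

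Per length, HLA-E stood at 0.694 ± 0.0196 of HLA-B and HLA-C summed with palbociclib and at 0.353 ± 0.0208 with DMSO in DU145 (SD, n = 3 each). HLA-B over HLA-C was 0.482 ± 0.0156 with palbociclib and 0.403 ± 0.0207 with DMSO. HLA-E thus took a larger share of the 3 heavy chains in every palbociclib library than in any DMSO library. Summed, the 3 heavy chains had a log2 fold change of 0.50 (SE 0.06, adjusted p = 2.69e-06) in DU145 and 0.32 (SE 0.04, adjusted p = 2.52e-09) in C4-2, where HLA-E adds almost nothing. The difference between these, 0.22 (adjusted p = 0.0455), did not hold up under most alternatives. B2M over the summed heavy chains, also per length, was 0.798 ± 0.0867 with palbociclib and 0.828 ± 0.0763 with DMSO in DU145, with overlapping ranges. In C4-2 it was 0.347 ± 0.0113 with palbociclib (n = 3) and 0.253 ± 0.0163 with DMSO (n = 2), with no overlap.

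**Figure D3:**
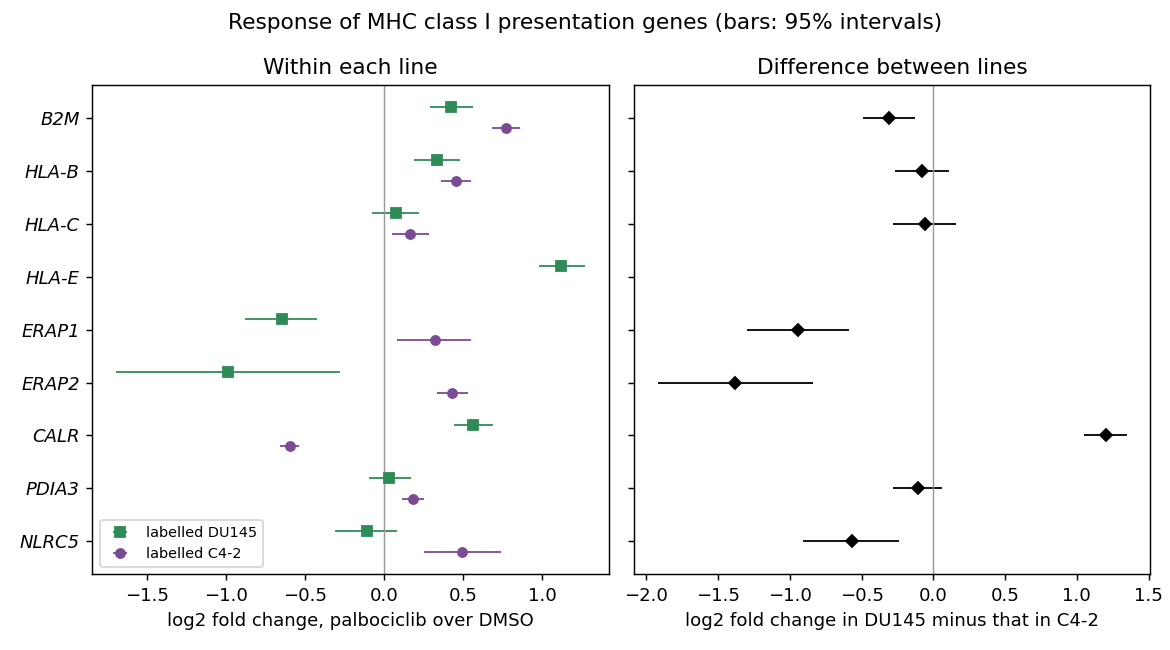
Left, log2 fold change of each member, palbociclib over DMSO, in DU145 (green squares) and C4-2 (purple circles); right, the fold change in DU145 minus that in C4-2. Bars are 95% intervals, and HLA-E is left out for C4-2 and for the difference because its C4-2 counts are 0 to 5. ERAP1, ERAP2 and CALR lie on opposite sides of 0 in the 2 lines.

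ERAP1 (chromosome 5, 96760810 to 96808100, minus strand) trims peptides in the ER to the length that class I molecules hold. In DU145 its counts were 182, 200 and 183 with palbociclib, against 309, 298 and 276 with DMSO. Every palbociclib library was below every DMSO library, with a log2 fold change of -0.65 (SE 0.11, adjusted p = 5.12e-05). In C4-2 the counts were 167, 153 and 166 with palbociclib, against 167 and 110 with DMSO. Its CPM there were 49.1 to 58.7 with palbociclib and 36.5 and 47.9 with DMSO, with the closest libraries almost touching. The log2 fold change was 0.32 (SE 0.12, adjusted p = 0.0203). That call was lost with DESeq2 (adjusted p = 0.142). It was also lost when DMSO replicate 2 (0.14, adjusted p = 0.422) or palbociclib replicate 2 (adjusted p = 0.0914) was left out. DU145 minus C4-2 gave -0.94 (SE 0.17, adjusted p = 5.77e-05). ERAP1 overlaps CAST, on the opposite strand, over 18786 bases. CAST had 3450 to 3714 counts with palbociclib and 4018 to 4137 with DMSO in DU145 (log2 fold change -0.20, adjusted p = 0.0106). In C4-2, counted with no strand option, CAST had 341, 305 and 471 counts with palbociclib and 467 and 352 with DMSO. Its log2 fold change there was -0.05 (adjusted p = 0.625). In both lines CAST had more counts than ERAP1, and its part in the ERAP1 values was not tested.

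ERAP2 (chromosome 5, 96875939 to 96919716, plus strand) is the partner aminopeptidase, with a preference for other amino-terminal residues. DU145 had 19, 21 and 10 counts with palbociclib, against 27, 44 and 28 with DMSO. All palbociclib libraries were lower, with a log2 fold change of -0.99 (SE 0.34, adjusted p = 0.0183). At these counts 1 library decides the DU145 call: without palbociclib replicate 3 it was -0.72 (adjusted p = 0.0748), and without DMSO replicate 2 it was -0.73 (adjusted p = 0.119). The antisense gene AC009126.1 spans ERAP2 and had 21, 22 and 35 counts with palbociclib and 34, 38 and 37 with DMSO in DU145. That is as many reads as ERAP2 itself had, so ERAP2's low level there cannot be told apart from its antisense partner's reads. C4-2 had far more ERAP2, with 917, 803 and 1135 counts with palbociclib, against 823 and 681 with DMSO, and 0 or 1 count for the antisense gene. ERAP2's CPM there were 307.8 to 336.0 with palbociclib and 225.8 to 235.8 with DMSO. The groups were apart, with a log2 fold change of 0.43 (SE 0.05, adjusted p = 1.63e-09). DU145 minus C4-2 gave -1.38 (SE 0.27, adjusted p = 0.000103).

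Per length, ERAP2 stood at 0.0942 ± 0.0309 of ERAP1 with palbociclib and 0.120 ± 0.0338 with DMSO in DU145, and at 6.27 ± 0.916 with palbociclib and 5.95 ± 0.956 with DMSO in C4-2. The balance of the 2 aminopeptidases was thus opposite in the 2 tables under either treatment, and the treatment ranges overlapped in both. The tables were counted separately, so this sets levels side by side and does not test them.

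CALR (chromosome 19, 12938578 to 12944489, plus strand) is a lectin chaperone that binds the glycan of newly made heavy chains. In DU145 it had 624.0, 632.9 and 648.4 CPM with palbociclib, against 419.5, 431.0 and 459.4 CPM with DMSO. All palbociclib libraries were higher, with a log2 fold change of 0.56 (SE 0.06, adjusted p = 3.73e-07). In C4-2 it had 953.8, 901.9 and 881.0 CPM with palbociclib, against 1319 and 1356 CPM with DMSO. All palbociclib libraries were lower there, with a log2 fold change of -0.60 (SE 0.03, adjusted p = 2.51e-20). The lines differed by 1.20 (SE 0.07, adjusted p = 3.14e-14), and it lay between 1.09 and 1.23 under every alternative run.

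PDIA3 (chromosome 15, 43746392 to 43773279, plus strand) is the disulfide isomerase that works with CALR in the peptide-loading complex. In DU145 it had 180.1, 182.4 and 164.0 CPM with palbociclib, against 181.9, 175.2 and 165.9 CPM with DMSO. The groups overlapped throughout (log2 fold change 0.03, 95% interval -0.10 to 0.17, adjusted p = 0.679). In C4-2 it had 757.2, 779.7 and 774.7 CPM with palbociclib, against 666.5 and 651.6 CPM with DMSO. These were apart, with a small log2 fold change of 0.18 (SE 0.03, adjusted p = 2.6e-05). The difference between the lines was not called (-0.11, 95% interval -0.28 to 0.06, adjusted p = 0.343). It was called without both DU145 libraries numbered 3 (-0.14, adjusted p = 0.0465) and with scaling by library totals (-0.22, adjusted p = 0.041). Per length, CALR over PDIA3 was 5.67 ± 0.439 with palbociclib and 3.92 ± 0.368 with DMSO in DU145, and 1.85 ± 0.103 with palbociclib and 3.17 ± 0.113 with DMSO in C4-2. So the ratio of this pair moved in opposite directions in the 2 lines, with no overlap of treatments in either.

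NLRC5 (chromosome 16, 56989485 to 57083531, plus strand) is the transactivator itself. In DU145 its counts were 649, 614 and 572 with palbociclib, against 675, 581 and 718 with DMSO. These overlapped (log2 fold change -0.11, 95% interval -0.31 to 0.08, adjusted p = 0.308). In C4-2 the counts were 142, 113 and 148 with palbociclib, against 112 and 91 with DMSO. The CPM were apart, at 43.3 to 49.1 with palbociclib and 30.2 and 32.1 with DMSO, with a log2 fold change of 0.49 (SE 0.12, adjusted p = 0.000702). DU145 minus C4-2 gave -0.57 (SE 0.16, adjusted p = 0.00648), and it missed the threshold without C4-2 DMSO replicate 2 (-0.52, adjusted p = 0.0556). HLA-B and B2M rose in both lines, while a change of NLRC5 RNA was called in C4-2 alone.

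Tested for the difference itself, 5 of 9 members responded differently in the 2 lines, where 33.4% of 18139 genes did. The change was higher in DU145 for CALR alone (background 18.4%) and lower for B2M, ERAP1, ERAP2 and NLRC5 (background 15.0%). For B2M both changes were rises, for CALR the lines moved in opposite directions, for ERAP1 and ERAP2 they did so with a C4-2 call on ERAP1 and a DU145 call on ERAP2 that rest on single libraries, and for NLRC5 1 line's change was not called.

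Set in order of mean CPM per kilobase within each treatment, CALR led in both lines, at 234.0 with palbociclib and 160.9 with DMSO in DU145, and at 336.1 with palbociclib and 492.9 with DMSO in C4-2. In DU145, B2M came second, at 119.9 with palbociclib and 90.9 with DMSO. HLA-E came next with palbociclib, at 61.7 beside HLA-C at 60.0, and their library ranges overlapped. With DMSO it stood at 28.8, below HLA-C at 58.1 and PDIA3 at 41.1. HLA-B, NLRC5, ERAP1 and ERAP2 closed the order in DU145 under both treatments. In C4-2, PDIA3 came second, at 181.7 with palbociclib and 155.4 with DMSO. HLA-B at 122.2 was above HLA-C at 113.6 with palbociclib, and HLA-B at 86.7 was below HLA-C at 97.7 with DMSO, where the ranges were less than 1 CPM per kilobase apart. B2M, ERAP2, ERAP1, NLRC5 and HLA-E followed under both treatments. Per kilobase, B2M was thus above each heavy chain in DU145 and below HLA-B and HLA-C in C4-2. This uses the lengths the DU145 table gives (6079 bases for B2M), and the order in both lines depends on them. In CPM, B2M was above CALR in DU145, at 729.1 beside 635.1 with palbociclib and 552.9 beside 436.6 with DMSO. In C4-2, B2M was above HLA-B and HLA-C in CPM, at 498.2 beside 372.9 for HLA-B and 284.8 for HLA-C with palbociclib. With DMSO it was at 283.2 CPM beside 264.4 for HLA-B and 244.9 for HLA-C.

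For the lists that follow, the background is the share of all tested genes called higher (28.8% in DU145, 25.2% in C4-2), lower (29.2% in DU145, 26.6% in C4-2) or either way (58.1% in DU145, 51.8% in C4-2). Among 14 other genes of peptide supply and loading, 4 rose and 1 fell of 14 tested in DU145 (median log2 fold change 0.11), and 3 rose and 2 fell of 9 tested in C4-2 (median 0.08). The 5 called of 14 in DU145 were below the background, and the 5 of 9 in C4-2 near it. Calnexin (CANX), which folds new heavy chains before B2M binds, rose in both lines, with log2 fold changes of 0.19 (SE 0.05, adjusted p = 0.00549) in DU145 and 0.46 (SE 0.03, adjusted p = 1.47e-18) in C4-2. LNPEP, an aminopeptidase of the cross-presentation route related to the ERAPs, rose by 0.35 (adjusted p = 0.00107) in DU145 and 0.38 (adjusted p = 0.000171) in C4-2. Tapasin (TAPBP), which bridges the heavy chain to the peptide transporter, rose in DU145 (0.55, SE 0.09, adjusted p = 2.81e-05). THOP1, a cytosolic peptidase that destroys peptides, fell in C4-2 (-0.60, SE 0.09, adjusted p = 6.18e-07). The transporter TAP1 and TAP2 had log2 fold changes of -0.01 (adjusted p = 0.922) and 0.16 (adjusted p = 0.122) in DU145. TAP1, TAP2 and the immunoproteasome genes PSMB8 and PSMB9, which lie in the MHC region, did not pass the low-count filter in C4-2, nor did TAPBP, which lies outside the region as bounded here.

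Among 8 other class I and class I-like heavy chains, 2 of 4 tested rose in each line and none fell (medians 0.18 in DU145 and 0.39 in C4-2), which with 4 genes does not stand out from the background. MR1, which presents vitamin B metabolites to MAIT cells, rose by 0.49 (SE 0.08, adjusted p = 2.59e-05) in DU145 and by 0.92 (SE 0.20, adjusted p = 0.000128) in C4-2.

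Of 16 factors, the promoter-binding partners of NLRC5 and the interferon and NF-kappaB factors, 2 rose and 9 fell in DU145 (median -0.28), and 4 rose and 3 fell in C4-2 (median -0.01). Falls in DU145 were thus 9 of 16 beside 29.2% of all genes, and both C4-2 counts were close to the background. In DU145 the RNAs of all 3 RFX subunits and all 3 NF-Y subunits fell, with log2 fold changes of -0.23 to -0.69. NF-Y binds the Y box marked above, and RFX binds the X1 box, which was not searched for. RFX5 changed by -0.30 (adjusted p = 0.000697) and RFXAP by -0.69 (adjusted p = 0.000172). STAT2 (-0.37, SE 0.08, adjusted p = 0.00078), which carries the type I interferon signal, fell too. RELA and NFKB1, subunits of NF-kappaB, rose by 0.84 (SE 0.08, adjusted p = 9.86e-08) and 0.49 (SE 0.07, adjusted p = 1.62e-05). In C4-2, STAT2 rose by 1.22 (SE 0.10, adjusted p = 2.69e-14) and IRF1, an interferon-induced activator of class I genes, by 0.60 (SE 0.10, adjusted p = 4.16e-06). RFX5 and RFXAP rose there as well, by 0.41 (adjusted p = 0.00154) and 1.08 (SE 0.31, adjusted p = 0.00373). The RFXAP value rests on low counts, 17 to 38 with palbociclib and 14 to 15 with DMSO. NFYA (-0.53, adjusted p = 7.96e-05), NFYC (-0.67, adjusted p = 0.000125) and CREB1 (-0.33, adjusted p = 0.000345) fell in C4-2.

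Of 9 regulators of class I turnover and surface level, 4 rose and 2 fell of 8 tested in DU145, and 3 rose and 1 fell of 8 in C4-2, the last 4 of 8 being at the background share. IRGQ, an adaptor that sends class I molecules to autophagy, rose by 0.90 (SE 0.08, adjusted p = 3.85e-08) in DU145 and 0.40 (SE 0.14, adjusted p = 0.0147) in C4-2. SUSD6, TMEM127 and WWP2 act together in lysosomal removal of class I. TMEM127 rose by 0.59 (adjusted p = 1.2e-06) in DU145 and 0.19 (adjusted p = 0.0412) in C4-2. SUSD6 rose by 0.39 (adjusted p = 0.0189) in C4-2 and was also called in DU145 (0.23, adjusted p = 0.0321). The ubiquitin ligase WWP2 moved the other way, by -0.60 (adjusted p = 9.81e-06) in DU145 and -0.36 (adjusted p = 0.0162) in C4-2.

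Among 10 other ER chaperones, 3 rose and 2 fell in DU145 (median 0.08), and 3 rose and 4 fell in C4-2 (median -0.04). The 5 called of 10 in DU145 were below the background. MANF, a secreted ER-stress protein, moved like CALR in each line, by 0.46 (SE 0.08, adjusted p = 7.53e-05) in DU145 and -0.60 (SE 0.10, adjusted p = 1e-06) in C4-2. HSPA5 (BiP), the main ER chaperone, moved the other way, by -0.27 (SE 0.05, adjusted p = 0.000422) in DU145 and 0.31 (SE 0.03, adjusted p = 4.49e-12) in C4-2. PDIA4 fell in both (-0.19, adjusted p = 0.0169 in DU145, and -0.26, adjusted p = 1.06e-06 in C4-2), and DNAJB11, a co-chaperone of HSPA5, rose in DU145 (0.27, adjusted p = 0.00777).

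Markers of leukocytes and endothelium were low. Their summed level over 15 genes was 10.1 to 11.1 CPM with palbociclib and 4.82 to 5.15 CPM with DMSO in DU145, and 13.9 to 20.7 CPM with palbociclib and 16.9 to 17.9 CPM with DMSO in C4-2. PTPRC, CD3E, CD3D and MS4A1, which define leukocytes, T cells and B cells, were at 0 in every DU145 library, and CD3D and CD68 in every C4-2 library used. In DU145, CD14, a lipopolysaccharide co-receptor, and CD74, the chaperone of MHC class II, were called higher, with log2 fold changes of 3.49 (SE 0.32, adjusted p = 4.8e-08) and 2.27 (SE 0.50, adjusted p = 0.000859). Both values rest on low counts. CD14 had 52 to 68 counts with palbociclib and 5 to 6 with DMSO, and CD74 had 27 to 29 with palbociclib and 0 to 10 with DMSO. No marker of this list was called in C4-2, where 1 was tested.

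Over all 11 libraries, with levels centred within each line, the genes most like B2M were AVL9 (Pearson r = 0.990), PGM3 (0.990), ERLEC1 (0.989), RAB9A (0.988) and LEPR (0.986) among 11007 genes. All 5 rose in both lines, LEPR with log2 fold changes of 0.74 in DU145 and 1.67 in C4-2. Among the members, r with B2M was 0.953 for HLA-B, 0.827 for PDIA3 and -0.249 for CALR. The libraries share their treatment groups, so these values describe which genes follow the same pattern and carry no test.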

How the data were processed

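The authors deposited raw read counts per gene, 1 table per line. Per the file headers, the C4-2 counts came from featureCounts v2.0.1 over exons of Ensembl 107 (GRCh38), with no strand option. For DU145 no header names a counter or strand setting, and the genome build is hg38 per the submitters' processing notes. Per the labels' protocols, the library kit was directional. Genes were filtered with filterByExpr (minimum count 10), scaled by TMM, and tested per line with edgeR 4.0.16's quasi-likelihood test under R 4.3.3. A joint fit over both lines tested the difference, DU145 minus C4-2, on genes in both tables (56747). P-values were Benjamini-Hochberg adjusted over all tested genes, with a threshold of 0.05. CPM uses library totals, and a count of 3 in a library corresponds to 0.1799 to 0.1862 CPM in DU145 and 0.86 to 1.15 CPM in C4-2; these limits cover counting error only.

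The scripts were tested on simulated data. Alternatives were RLE factors, library totals, other low-count filters, DESeq2 1.42.0, a replicate block, and leaving out libraries. The members and lists were chosen with earlier results of these data known. Named genes are the 9 members, up to 3 called genes per list and line with the smallest adjusted p, and the 5 most like B2M (CPM plus 0.5, log2); a few others were named after their values were seen (TAP1, TAP2, RFX5, RFXAP, NFYC, CREB1 and STAT2 in DU145, and leukocyte markers at 0). Some genes given by the rule are not reported here.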

Additional observations from a re-analysis of the deposited data

Results flagged for a closer look

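The response to palbociclib differed between the lines for 5 members by the test of the difference, the log2 fold change in DU145 minus that in C4-2 (edgeR's quasi-likelihood test, adjusted over all genes). It was 1.20 for CALR (adjusted p = 3.14e-14), with log2 fold changes of 0.56 in DU145 and -0.60 in C4-2. For ERAP1 it was -0.94 (adjusted p = 5.77e-05), and for ERAP2 -1.38 (adjusted p = 0.000103), where the DU145 libraries hold 10 to 44 counts. For NLRC5 it was -0.57 (adjusted p = 0.00648), with a DU145 change that was not called. For B2M it was -0.31 (adjusted p = 0.00622), with a rise in each line.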

How the results depend on the processing

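Of 375 member values recomputed under the alternatives, 362 kept their direction and side of the threshold, 9 lost the call, 2 gained it and 2 changed sign. The lost and gained calls stand beside their results in C4-2 HLA-C and ERAP1, DU145 ERAP2, and the line differences of NLRC5 and PDIA3. The sign changes were the line difference of HLA-C, 0.09 without C4-2 DMSO replicate 2 (range -0.22 to 0.09 with a library left out), and of HLA-E, -5.84 without C4-2 DMSO replicate 1 (range -5.84 to 1.19), where HLA-E has no count in the DMSO library left; that single library was assumed to vary like the other groups. DESeq2 called 3793 genes in C4-2, against 6184 with edgeR. Members called lower in DU145 numbered 1 in place of 2 with the stricter filter (minimum count 30), which drops ERAP2, and 1 to 2 with a library left out. The line difference of the summed heavy chains missed the threshold at 0.17 with RLE factors, 0.11 with library totals, 0.19 with the stricter filter, 0.17 with DESeq2 and 0.21 with scaling within each table, and ranged over 0.14 to 0.30 with a library left out; the cause was not tested.

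A replicate block gave 9953 called genes in DU145, 5699 in C4-2 and 6037 for the line difference, against 8924, 6184 and 6064 without it. Same-numbered libraries correlated at 0.039, 0.067 and 0.199 in DU145 and 0.007 and 0.03 in C4-2. DU145 palbociclib replicate 1 correlated best with DMSO replicate 2 (0.096), so the numbers were not taken as pairs. DU145 palbociclib replicate 3 correlated at -0.077 and -0.143 with DMSO replicates 1 and 2. What the 2 DU145 libraries numbered 3 share was not tested. No member's call changed under the block. Low counts limit ERAP2 in DU145, and the scarcity of MHC-region reads in the C4-2 table limits HLA-E there.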
